A study of Mus musculus with 45 samples.

Results

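The 10 genes described here, Spry1, Spry2, Spry4, Spred1, Spred2, Dusp4, Dusp6, Etv4, Etv5 and Egr1, are known transcriptional targets of the ERK pathway. The Spry, Spred and Dusp genes among them encode feedback inhibitors of the pathway. The 10 genes were taken by symbol from the 35372 genes counted in 45 RNA-seq libraries of differentiating mouse embryonic stem cells (ESCs), and all 10 were found in every library. The cells were wild-type male E14tg2a ESCs of the 129/Ola background, a single line, held either in 2iL (N2B27 medium with leukaemia inhibitory factor, LIF, the GSK3 inhibitor CHIR99021 and the MEK inhibitor PD0325901, for at most 3 passages before differentiation) or in SL (serum with LIF, without inhibitors). From each medium, cells were differentiated as embryoid bodies in suspension in serum without LIF (EB course), as a monolayer in N2B27 with Fgf2 and Activin A (EpiSC course), or as a monolayer in N2B27 alone (Neural course), and RNA was taken at days 0, 1, 1.5, 2, 2.5, 3, 5 and 7. Day 0 held 3 libraries in 2iL, 1 for each course, and a single library in SL. Each later day held 1 library for each course and starting medium, except day 5 of the EpiSC course from 2iL, which was not analysed here. The comparison asked what happened to these genes when the MEK inhibitor was taken away, and how far that differed from cells kept in SL, where MEK was not inhibited. Removal of PD0325901 coincided with removal of CHIR99021 and LIF and with the change to the differentiation medium, so their parts cannot be told apart.

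Fibroblast growth factors and serum factors activate Ras, which activates Raf, the kinases MEK1 and MEK2, and through them the kinases ERK1 and ERK2. Active ERK turns on genes whose products dampen the same pathway, so the RNA of these genes is widely used as a readout of pathway activity. Sprouty proteins (Spry1, Spry2, Spry4) and the related Spred proteins (Spred1, Spred2) restrain signalling at the level of Ras and Raf, the phosphatases Dusp4 and Dusp6 remove phosphate from ERK, in the nucleus and the cytoplasm respectively, Etv4 and Etv5 are ETS transcription factors expressed downstream of FGF signals, and Egr1 is an immediate-early zinc finger factor. In mouse ESCs autocrine Fgf4 drives this cascade, and its blockade by PD0325901 helps to hold cells in naive pluripotency.

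Promoter windows of 300 bases, from 250 bases before the start site to 50 from it on, were taken from RefSeq on GRCm38.p6 for 6 of the 10 genes, Spry1, Spry2, Spred1, Spred2, Dusp6 and Etv5. Those of Dusp6 and Spred1, which rose at day 1 after 2iL, and of Spred2 and Etv5, which did not pass the test there, are printed 5′ to 3′ on the gene's strand so that genes of both kinds can be read side by side. Capitals mark the ETS core GGAAG or the short cyclic AMP response element TGACG, on either strand (CTTCC and CGTCA on the other). Etv5 has 2 start sites.
Dusp6 (chr10:99262981-99263280, plus strand): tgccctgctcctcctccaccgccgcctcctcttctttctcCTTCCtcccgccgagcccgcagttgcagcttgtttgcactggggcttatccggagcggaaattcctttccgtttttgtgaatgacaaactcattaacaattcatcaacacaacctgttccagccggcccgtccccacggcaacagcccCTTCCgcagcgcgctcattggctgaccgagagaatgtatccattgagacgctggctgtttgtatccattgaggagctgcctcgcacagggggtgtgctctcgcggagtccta
Spred1 (chr2:117120821-117121120, plus strand): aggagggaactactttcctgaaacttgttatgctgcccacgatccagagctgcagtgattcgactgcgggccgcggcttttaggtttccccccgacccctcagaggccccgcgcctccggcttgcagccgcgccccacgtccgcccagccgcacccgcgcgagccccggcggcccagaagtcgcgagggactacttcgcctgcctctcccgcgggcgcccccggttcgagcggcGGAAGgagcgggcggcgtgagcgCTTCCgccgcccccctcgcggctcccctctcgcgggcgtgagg
Spred2 (chr11:19924192-19924491, plus strand): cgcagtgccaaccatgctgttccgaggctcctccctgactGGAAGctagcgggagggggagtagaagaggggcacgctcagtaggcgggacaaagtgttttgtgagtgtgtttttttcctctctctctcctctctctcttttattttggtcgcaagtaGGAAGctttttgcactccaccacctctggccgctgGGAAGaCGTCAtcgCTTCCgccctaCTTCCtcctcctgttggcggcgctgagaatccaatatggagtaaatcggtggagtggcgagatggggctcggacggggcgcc
Etv5, upstream start (chr16:22439521-22439820, minus strand): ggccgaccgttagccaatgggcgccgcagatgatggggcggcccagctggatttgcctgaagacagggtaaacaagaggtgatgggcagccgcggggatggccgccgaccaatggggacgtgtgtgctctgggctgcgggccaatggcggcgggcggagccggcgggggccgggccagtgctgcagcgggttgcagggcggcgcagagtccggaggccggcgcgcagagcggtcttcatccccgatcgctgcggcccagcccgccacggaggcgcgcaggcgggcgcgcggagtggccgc
Etv5, downstream start (chr16:22438319-22438618, minus strand): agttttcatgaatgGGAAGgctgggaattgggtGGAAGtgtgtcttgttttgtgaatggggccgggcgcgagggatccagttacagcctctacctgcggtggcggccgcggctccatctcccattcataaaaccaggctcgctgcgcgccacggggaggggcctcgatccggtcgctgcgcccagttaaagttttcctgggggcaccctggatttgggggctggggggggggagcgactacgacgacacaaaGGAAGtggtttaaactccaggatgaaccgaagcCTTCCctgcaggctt

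The Dusp6 window held GGAAG on the reverse strand at positions -210 and -62 relative to the start site. Spred1 held it at -16 and 8, and Spred2 held it 5 times between -210 and -32, with TGACG at -51. The Spred1 window ends at 117121120, before the gene start of 117121374 given below, so its positions refer to the RefSeq start only. The upstream Etv5 window held none, while the downstream one held 4 between -236 and 36. Of the 6 genes with a window, 5 held GGAAG, against 71.3% of all 32544 promoters, and 1 held TGACG, against 20.9%. The longer ETS motif CCGGAAGT (3.92% of promoters), the full element TGACGTCA (1.8%), the AP-1 motif TGANTCA (7.79%), the CArG box (1.64%), TATAAA (13.6%) and CACGTG (7.17%) had no match in these windows. The GC box GGGCGG was present for 4 of the 6 (Spry1, Spred1, Spred2 and Etv5), against 35.9%. Dusp4 and Etv4 had no RefSeq entry, and Spry4 and Egr1 were left out of the search. Whether these 4 genes hold any of the motifs was not tested. These motifs were searched on both strands, GGAAG is part of CCGGAAGT and TGACG is part of TGACGTCA, and a match is a description of letters, not of a bound site.

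Between 13093226 and 39804240 reads were counted per library, and the median was 18222720. As a set, the 8 libraries of the EB course from 2iL were deepest, with 31055159 to 39804240 reads. Levels are given as CPM, the read count scaled to a library total of 1000000 reads, and a count of 3 reads corresponds to between 0.0754 and 0.229 CPM. Of the markers of naive ESCs, Nanog was at 837 to 1008 CPM in 2iL and 632 CPM in SL at day 0, and Esrrb at 740 to 836 CPM and 561 CPM. Zfp42 went the other way, at 319 to 366 CPM in 2iL and 383 CPM in SL. Over 10 naive markers the median log2 fold change, 2iL minus SL, was 0.26. In bulk RNA, fewer cells with a transcript and less of it per cell cannot be told apart. The 3 courses stand in for replicates of a day, nothing says that the 3 libraries in 2iL at day 0 came from separate cultures, and the p-values measure the spread between these libraries.

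On GRCm38 the Sprouty genes lie at chr3:37639947-37644598 (Spry1, plus strand), chr14:105891947-105896819 (Spry2, minus strand) and chr18:38586247-38601415 (Spry4, minus strand). Spred1 lies at chr2:117121374-117182279 and Spred2 at chr11:19924375-20024026, both on the plus strand. The phosphatase genes lie on the plus strand at chr8:34807297-34819894 (Dusp4) and chr10:99263231-99267489 (Dusp6). Etv4 at chr11:101769742-101785371 and Etv5 at chr16:22381309-22439719 are on the minus strand, and Egr1 is on the plus strand at chr18:34859823-34864984. Spry4 overlaps the annotated genes Gm27369 and Gm27804, with no shared exon bases, and no other member overlaps an annotated gene.

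At day 0, 8 of the 10 genes were lower in 2iL than in SL and none was higher. The deepest differences were in Spry4, Egr1, Dusp4 and Dusp6, the next in Spry1, Spry2 and Spred1, and the smallest in Etv4. This ordering into steep and shallow genes was made after their values were seen. Among all 14948 genes tested, 17.3% were lower and 13.5% higher, and the median log2 fold change of the members was -1.34, against 0.01 for all genes.

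Spry4 stood at 1.72, 1.66 and 2.24 CPM in the 2iL libraries of the EB, EpiSC and Neural courses, and at 123 CPM in SL. The library in SL was far above each 2iL library, and the fitted log2 fold change, 2iL minus SL, was -5.97 (SE 0.20, edgeR adjusted p = 4.12e-06). Spry1 was at 4.88, 2.79 and 5.27 CPM in 2iL and at 12.7 CPM in SL, a log2 fold change of -1.47 (SE 0.36, edgeR adjusted p = 0.0136). Spry2, at 28.2, 17.2 and 22.3 CPM in 2iL and 54.3 CPM in SL, differed by -1.20 (SE 0.24, edgeR adjusted p = 0.00587). The 2iL libraries of Spry1 and Spry2 were all below SL too, but the 3 Sprouty genes did not respond to the same degree, with 2iL means of 1.52%, 33.9% and 41.6% of the SL level for Spry4, Spry1 and Spry2.

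Of the Spred genes, Spred1 was at 63.9, 62.1 and 44.8 CPM in 2iL and at 115 CPM in SL, a log2 fold change of -0.96 (SE 0.18, edgeR adjusted p = 0.00486). Spred2 was at 45.6, 28.1 and 26.9 CPM in 2iL and at 46.1 CPM in SL. Its EB library reached almost the SL level, and the difference of -0.40 (95% interval -0.92 to 0.12) did not pass the test (edgeR adjusted p = 0.280), while without the EB library it was -0.67 and did (adjusted p = 0.0208).

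The phosphatases were both among the steep genes. Dusp4 was at 0.803, 0.932 and 1.12 CPM in 2iL, from 27, 14 and 24 reads, and at 34.4 CPM in SL, a log2 fold change of -5.13 (SE 0.27, edgeR adjusted p = 1.88e-05). Dusp6 was at 7.35, 11.2 and 11.8 CPM in 2iL and at 103 CPM in SL, a difference of -3.30 (SE 0.24, edgeR adjusted p = 4.94e-05). Dusp4 in 2iL thus reached 2.76% and Dusp6 9.83% of the level in SL.

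Of the ETS factors, Etv4 was lower in 2iL and Etv5 did not pass the test. Etv4 was at 76.3, 71.1 and 77.9 CPM in 2iL and at 120 CPM in SL, which is a log2 fold change of -0.62 (SE 0.16, edgeR adjusted p = 0.0199). Etv5 was at 528, 567 and 553 CPM in 2iL and at 416 CPM in SL, the one member whose 2iL libraries all lay above SL. That difference of 0.46 (95% interval 0.09 to 0.83) did not pass the test (edgeR adjusted p = 0.0938), although DESeq2 called it (adjusted p = 0.0315).

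Egr1 was nearly undetected in 2iL, with 3, 3 and 7 reads, or 0.0892, 0.200 and 0.327 CPM, against 212 reads and 11.6 CPM in SL. The pooled ratio of SL to 2iL was 62.7, with an exact 95% interval of 35.9 to 120 that covers counting error only, and the fitted log2 fold change was -5.83 (SE 0.50, edgeR adjusted p = 9.88e-05). The immediate-early genes Fos and Fosb, named after their values were seen, were also lower. Fos was at 0.887 to 1.43 CPM in 2iL and 17.1 CPM in SL, and Fosb at 0.0665 to 0.0934 CPM and 2.41 CPM. Further log2 fold changes, 2iL minus SL, were -3.22 for Jun, -5.16 for Fosl1, -1.90 for Atf3, -1.90 for Maff and -1.31 for Zfp36. Of 27 further genes listed as ERK-responsive and tested, 6 were higher and 9 lower in 2iL, against 13.5% and 17.3% of all genes. Among the higher ones were Dusp14 (2.89), Ccnd1 (1.75) and Etv1 (1.25). Junb (log2 fold change -0.71), Ier2 (-0.37), Ier3 (-0.77), Dusp1 (-0.49) and Ier5 (0.33) did not pass the test (edgeR adjusted p 0.0779 to 0.471). Of 12 genes known to respond to cell handling, Fos and Fosb among them, 8 were lower in 2iL and none higher, with a summed level of 103 to 126 CPM in 2iL and 230 CPM in SL. Primitive endoderm markers also differed, all 10 being lower in 2iL, with a summed level of 204 to 260 CPM against 1091 CPM, and Gata6 at 0.560 to 1.22 CPM against 35.4 CPM. The part of either list in the members' differences was not tested.

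SL at day 0 is 1 library, so the spread in this comparison comes from the 2iL libraries alone. With the spread taken over all 45 libraries, 4 of the members remained lower, Spry4, Dusp4, Dusp6 and Egr1, and the adjusted p of Spry1, Spry2, Spred1 and Etv4 became 0.0882, 0.0692, 0.271 and 0.618.

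**Figure D1:**
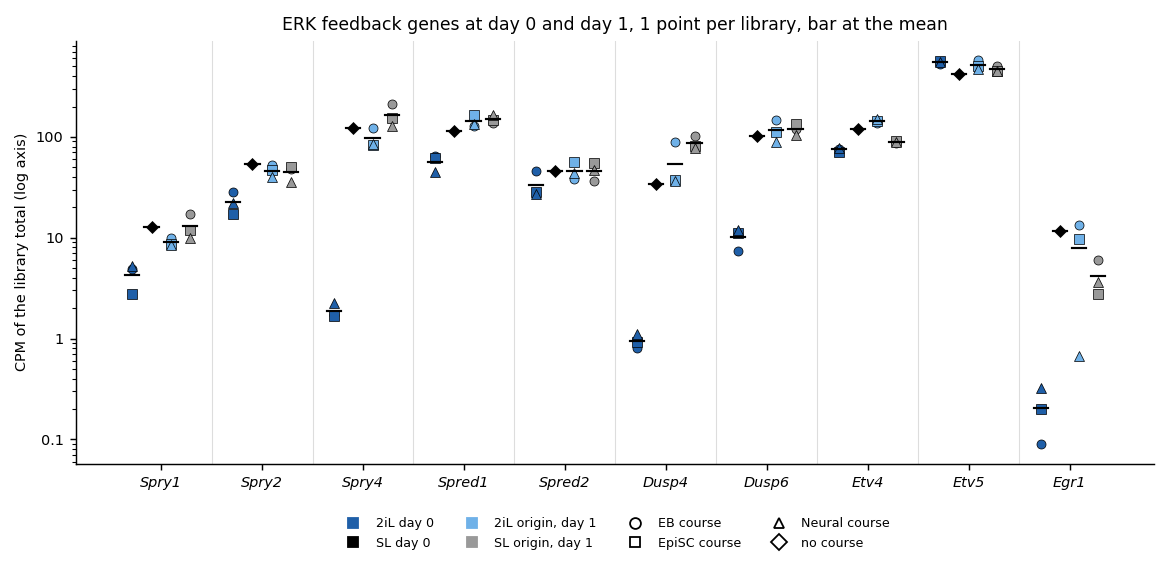
Level of each gene in CPM of the library total, on a log axis, in 2iL and SL at day 0 and at day 1 from each medium, with 1 point per library, marker shape for the course and a bar at the mean. Spry4, Dusp4, Dusp6 and Egr1 in 2iL at day 0 lie far below every other group of the same gene except 1 Egr1 library, that of the Neural course at day 1, while Etv5 stays between 416 and 579 CPM throughout.

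Per base of exon the genes were not equally abundant when MEK was inhibited. As RPKM, on the exon lengths of GENCODE M21, Etv5 led in 2iL at day 0 with 134 ± 4.75 (SD, n = 3), followed by Etv4 with 24.2 ± 1.14. Spry2 (10.8 ± 2.64), Spred1 (8.39 ± 1.55) and Spred2 (7.26 ± 2.26) came next and did not differ among neighbours beyond their spread. Dusp6 (3.23 ± 0.771) and Spry1 (1.49 ± 0.458) stood above Spry4 (0.395 ± 0.0667) and Dusp4 (0.347 ± 0.0583), which overlapped, and Egr1 was last with 0.0458 ± 0.0265. In SL at day 0, Etv5 was again highest at 101 RPKM and Egr1 lowest at 2.59 RPKM, but Dusp6 (32.8 RPKM) and Spry4 (25.9 RPKM) ranked just below, beside Etv4 (38.7 RPKM) and Spry2 (26.0 RPKM).

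One day after release from 2iL, 5 of the 10 genes had risen, Dusp4, Spry4, Egr1, Dusp6 and Spred1, and none had fallen. Among all 16306 genes tested, 14.6% rose and 14% fell. The median log2 fold change of the members was 1.13, against 0.02 for all genes, and 9 of the 10 had a positive estimate. This comparison shares the 2iL libraries of day 0 with the preceding one, so the 2 sets of values are given side by side and not as independent evidence.

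Spry4 went from the day 0 values above to 121, 82.8 and 85.3 CPM in the EB, EpiSC and Neural courses, a log2 fold change of 5.65 (SE 0.59, edgeR adjusted p = 5.21e-06). Each course rose 38.1-fold or more, and the day 1 mean reached 78.3% of the SL level of day 0. Spry1 went to 9.99, 8.63 and 8.44 CPM and Spry2 to 52.2, 46.4 and 40.2 CPM. Every day 1 library of these genes was above every 2iL library of day 0, yet the log2 fold changes of 0.99 (SE 0.44) for Spry1 and 0.99 (SE 0.42) for Spry2 did not pass the test (edgeR adjusted p = 0.0995 and 0.0888). When the fit was restricted to days 0 and 1, both passed it, with adjusted p of 0.00814 and 0.00139. Spry1 also passed with day 0 coded as no course (0.0434), and Spry2 with the spread over all libraries (0.0317).

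Spred1 reached 128, 163 and 136 CPM, above the SL level of day 0 in each course, with a log2 fold change of 1.27 (SE 0.43, edgeR adjusted p = 0.0364). This call was lost without the EpiSC course (adjusted p = 0.257), without the Neural course (0.115) and without the course as a block (0.0687), while the estimate stayed between 1.12 and 1.47. Spred2 reached 38.4, 55.9 and 43.4 CPM. It was lower than at day 0 in the EB course and higher in the other 2, and the change of 0.44 (95% interval 0.04 to 0.83) did not pass the test (edgeR adjusted p = 0.119). Without the EB course it passed, at 0.81 (adjusted p = 0.002).

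Dusp4 reached 88.6, 37.5 and 36.2 CPM, a log2 fold change of 5.78 (SE 0.65, edgeR adjusted p = 1.11e-05). The rise was 110-fold in the EB course, 40.3-fold in the EpiSC course and 32.3-fold in the Neural course. Dusp6 reached 146, 113 and 88.2 CPM, a log2 fold change of 3.48 (SE 0.51, edgeR adjusted p = 0.000112), or 19.9-, 10.1- and 7.47-fold in the 3 courses. For both phosphatases the EB course, which is the one with serum, rose most and the Neural course least, an order that rests on 1 library for each course and day.

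Etv4 reached 137, 144 and 151 CPM, which is 1.80-, 2.02- and 1.93-fold its day 0 value in the 3 courses. The groups did not overlap, but the fitted change of 0.92 (95% interval -0.09 to 1.92) did not pass the test in the fit over all days (edgeR adjusted p = 0.201); in the fit of days 0 and 1 alone it did (0.91, adjusted p = 0.000242). Etv5 was at 579, 500 and 472 CPM, or 1.10, 0.881 and 0.854 times its day 0 level in the 3 courses, with a log2 fold change of -0.14 (95% interval -0.99 to 0.71, edgeR adjusted p = 0.840).

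Egr1 reached 13.3 CPM in the EB course and 9.62 CPM in the EpiSC course, but 0.677 CPM in the Neural course. In reads, these were 439, 146 and 15 at day 1. The ratio to day 0 was 149 (exact 95% counting interval 50.5 to 723) in the EB course, 48.2 (16.2 to 236) in the EpiSC course and 2.07 (0.795 to 6.01) in the Neural course, so that a rise in the Neural course was not detectable at this depth. The fitted log2 fold change over the courses was 4.97 (SE 0.90, edgeR adjusted p = 0.000704), and it stayed past the threshold, between 3.59 and 6.46, under each of the 11 alternatives run.

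Pluripotency markers changed over the same day. The summed level of 10 naive pluripotency markers went from 4356 to 4616 CPM at day 0 to 1212 to 1492 CPM at day 1, with 6 of them falling, and 7 formative epiblast markers went from 129 to 162 CPM to 638 to 1591 CPM, all 7 rising. Handling-response genes did not rise with the members, as their sum was 103 to 126 CPM at day 0 and 73.2 to 117 CPM at day 1, with 3 of 12 lower and none higher. The sum of primitive endoderm markers, whose most abundant gene was Lama1, was 204 to 260 CPM and then 41.8 to 45.6 CPM. The list did not fall as a whole, with 1 of 10 higher, 1 lower and a median log2 fold change of 0.91. Gata6 went from 0.560 to 1.22 CPM at day 0 to 5.53 to 9.80 CPM at day 1, and Gata4 from 0.607 to 1.28 CPM to 0.361 to 0.755 CPM.

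Other genes of the pathway were called at day 1 in shares near those of all genes, of which 14.6% were higher and 14% lower. Of 31 further genes listed as ERK-responsive, 30 were tested at day 1, where 3 were higher and 5 lower, with a median log2 fold change of 0.27. Myc, a growth-promoting transcription factor, stood at 1.53 ± 0.480 CPM at day 0 and at 30.0 ± 9.55 CPM at day 1 (mean ± SD, n = 3), which is 4.21 on the log2 scale (SE 0.54, edgeR adjusted p = 3.54e-05), and Phlda1 from 0.593 ± 0.187 to 4.34 ± 2.15 CPM, a change of 2.87 (SE 0.47, edgeR adjusted p = 0.000318). The Ephrin receptor gene Epha4 went the other way, from 199 ± 15.6 to 45.9 ± 9.74 CPM, a change of -2.10 (SE 0.60, edgeR adjusted p = 0.0150). Bhlhe40, a transcriptional repressor, fell from 26.7 ± 1.21 to 8.40 ± 1.58 CPM, and Phlda3 from 28.7 ± 5.92 to 9.60 ± 3.34 CPM (log2 fold changes -1.71 and -1.64, edgeR adjusted p = 0.00424 and 2.93e-05). The third riser was Rasa2, which encodes a Ras GTPase-activating protein, at 10.9 ± 1.17 and 14.6 ± 3.07 CPM (0.40, edgeR adjusted p = 0.0448). Of 37 components of the pathway itself, 6 were higher and 3 lower, with a median of 0.06. The ligand Fgf5, a marker of the formative epiblast, rose from 0.0887 ± 0.0446 to 8.83 ± 11.2 CPM, where the EB course alone was at 21.8 CPM. Fgf15, another ligand, rose from 0.315 ± 0.0695 to 9.26 ± 9.82 CPM (4.74, edgeR adjusted p = 0.0137). The kinase gene Braf rose from 60.1 ± 10.4 to 230 ± 58.8 CPM (log2 fold change 1.92, SE 0.28, edgeR adjusted p = 0.000112). The 3 components that fell were the receptor adaptor gene Frs3 (-1.02), the ERK-activated kinase gene Rps6ka2 (-0.73) and the repressor gene Cic (-0.56), with edgeR adjusted p of 0.00702, 0.0408 and 0.0217. Fgf4, the autocrine ligand, at 173 ± 8.33 and 168 ± 35.0 CPM, and the receptor gene Fgfr1, at 99.7 ± 14.24 and 86.3 ± 5.62 CPM, did not pass the test (edgeR adjusted p = 0.891 and 0.515).

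From SL, where MEK was not inhibited at the start, none of the 10 genes passed the test between day 0 and day 1, against 18.1% of the 16482 genes tested with edgeR. At an unadjusted p under 0.05 there was 1, Dusp4, and DESeq2 also called Dusp4 (adjusted p = 0.0212). Spry4 went from 123 CPM to 212, 153 and 127 CPM, Dusp6 from 103 CPM to 120, 133 and 104 CPM, and Dusp4 from 34.4 CPM to 102, 80.7 and 77.8 CPM. The estimates of Spry4 (0.44) and Dusp6 (0.32) had intervals of -0.53 to 1.42 and -0.71 to 1.36, and that of Dusp4 was 1.38 (95% interval 0.38 to 2.38, edgeR adjusted p = 0.0714), or 1.45 (adjusted p = 0.0305) without the Neural course. Egr1 went from 11.6 CPM to 6.04, 2.76 and 3.68 CPM, all below day 0, with an estimate of -1.30 (95% interval -2.96 to 0.37). The day 0 value of every gene in these changes is a single library.

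The change from day 0 to day 1 was larger from 2iL than from SL for 4 genes, Egr1, Spry4, Dusp4 and Dusp6, where 4.3% of the 17107 genes tested had a larger and 3.83% a smaller change. The difference of the log2 changes was 6.43 (SE 1.30, edgeR adjusted p = 0.00226) for Egr1, 5.18 (SE 0.75, edgeR adjusted p = 4.33e-05) for Spry4, 4.37 (SE 0.79, edgeR adjusted p = 0.000692) for Dusp4 and 3.16 (SE 0.73, edgeR adjusted p = 0.00669) for Dusp6. The other 6 lay between -0.44 (Etv5) and 1.22 (Etv4), and the median over all 10 was 1.21, against -0.03 for all genes. The handling-response genes Fos (3.49), Fosb (4.64) and Jun (2.06) were also called here, with the SL library of day 0 as their high point, and their part in the value of Egr1 was not tested. Egr1 lost its call without the EpiSC course (6.17, adjusted p = 0.0873), and Dusp6 without the EB course (2.74, adjusted p = 0.0603) or without the block (3.20, adjusted p = 0.0827). In the fit of days 0 and 1 alone, 7 genes were called, Spry2, Spred1 and Etv4 in addition.

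**Figure D2:**
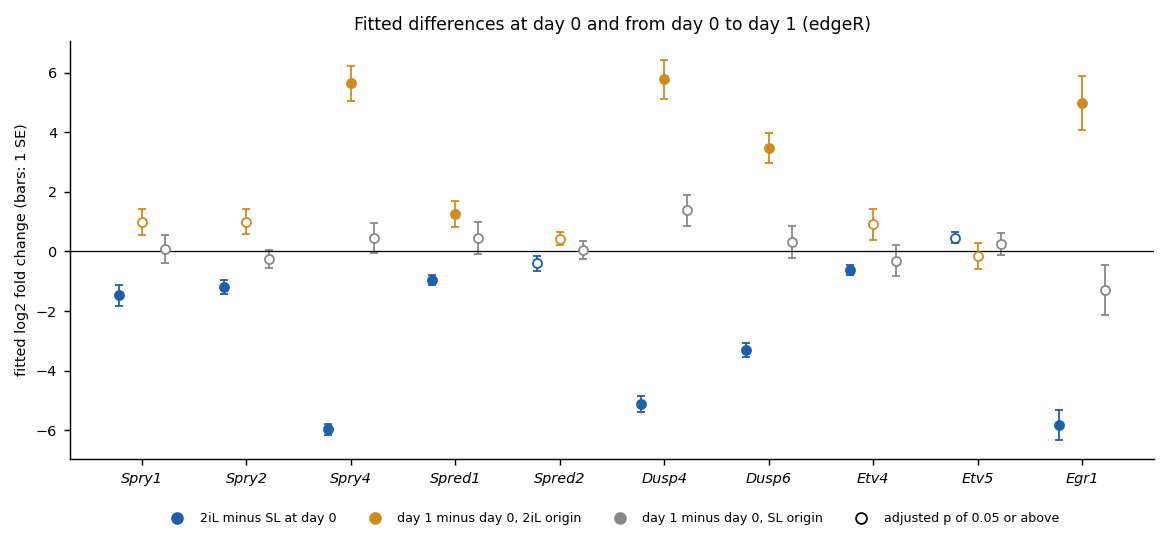
Fitted log2 fold change with 1 SE for each gene in 3 comparisons, 2iL minus SL at day 0, and day 1 minus day 0 from 2iL and from SL; filled points have an edgeR adjusted p under 0.05. The blue points of Spry4, Dusp4, Egr1 and Dusp6 lie between -5.97 and -3.30, the orange points of the same genes between 3.48 and 5.78, and no grey point is filled.

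At day 1 the origins no longer differed past the test in any of the 10 genes, against 13.3% of the 17107 genes tested with edgeR, and none had an unadjusted p under 0.05 or was called by DESeq2. The median log2 difference, 2iL minus SL, was 0.00. Libraries of the origins still did not overlap in Etv4, at 137 to 151 CPM from 2iL and 86.1 to 91.6 CPM from SL. Nor did they in Spry4, at 82.8 to 121 CPM from 2iL and 127 to 212 CPM from SL. The intervals remain wide, from -1.55 to 0.13 for Spry4, from -0.86 to 0.85 for Dusp6 and from -0.41 to 0.41 for Spred2, and differences inside these ranges could not be told from 0. Over days 1.5 to 3, Spry1 alone was called, at -0.54 (SE 0.21, edgeR adjusted p = 0.0455), where 16% of all genes were lower. This call was lost without the block, without the filter on low counts and without the EB or the EpiSC course. Over days 5 and 7 none was called, against 1.01% of genes, and none had an unadjusted p under 0.05 or a call by DESeq2.

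After day 1 the genes parted. From 2iL, Spry4, Dusp4, Dusp6, Egr1 and Spred1 stayed above their day 0 level at each later day. Dusp4 continued upward in the monolayer courses, from 37.5 CPM at day 1 to 133 CPM at day 1.5 and 139 CPM at day 2 in the EpiSC course and from 36.2 to 85.0 and 119 CPM in the Neural course, and in the EB course it went from 88.6 to 57.5 and 51.8 CPM. Its log2 change from day 0 was 6.65 (SE 0.67) at day 1.5 and 6.92 (SE 0.67) at day 2 (edgeR adjusted p = 2.03e-06 and 9.84e-07). The numbers of genes higher than at day 0 were 5 at day 1.5 and 6 at day 2, where 20.1% and 23.8% of all genes were higher. They were 7 at day 2.5 and 7 at day 3, where 25.3% and 27.2% were. At day 5 and at day 7 there were 6 each, against 28.8% and 33.8%.

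Genes that fell below the 2iL level appeared from day 3, with 2 at day 3 (24.1% of all genes lower), 2 at day 5 (25.3%) and 3 at day 7 (29.9%). Among the days after day 0, Etv4 was highest at day 1 in each of the 6 courses. From SL, its day 1 values of 86.1 to 91.6 CPM were below the single day 0 library at 120 CPM. From 2iL, Etv4 declined after day 1 to 17.9, 32.8 and 8.60 CPM at day 7, a log2 change of -2.16 (SE 0.54, edgeR adjusted p = 0.00246) from day 0. Etv5 ended at 94.6, 216 and 70.1 CPM, a change of -2.29 (SE 0.46, edgeR adjusted p = 0.000422). Spred2 ended at 25.9, 28.3 and 17.4 CPM, a change of -0.57 (SE 0.20, edgeR adjusted p = 0.0217). Spry1 took the opposite way, to 20.4, 39.0 and 9.76 CPM at day 7, a change of 2.20 (SE 0.45, edgeR adjusted p = 0.000490). The Spred1 call was lost without the EpiSC course at days 1.5 to 7 (adjusted p 0.127 to 0.278). Without that course the genes called at day 2.5 and day 3 numbered 3 and 4 instead of 7 and 9, and in the fit of days 0 and 5 alone 2 were called at day 5 instead of 8.

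From SL, 4 genes were lower than at day 0 at day 5 and at day 7, Spry4, Spred2, Etv4 and Etv5, against 18.5% of all 16482 genes lower at day 5, and 21% lower and 21.1% higher at day 7. At day 7 Spry4 stood at 35.0, 28.3 and 14.4 CPM, a log2 change of -2.31 (SE 0.45, edgeR adjusted p = 0.000888), and Etv4 at 20.4, 39.5 and 12.5 CPM, a change of -2.41 (SE 0.49, edgeR adjusted p = 0.00111). Without the block none was called at day 5 and Etv5 was lost at day 7 (adjusted p = 0.112), and Spred2 was lost at day 7 without the EpiSC course (0.0927) or the Neural course (0.0764). Dusp4 was higher at days 1.5 (1.77) and 2 (1.44), against 12.3% and 15.6% of all genes, and Etv4 was lower at day 3 (-1.55), against 14.8%. These 3 calls were lost without the block and with the spread over all libraries, and further without the EpiSC course (Dusp4 at both days) or the EB course (Dusp4 at day 2 and Etv4). At day 2.5 edgeR called none, against 31.1% of all genes, with 3 at an unadjusted p under 0.05 and 2 by DESeq2.

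Day 7 against day 1, a comparison added after the values were seen, does not use day 0. In both origins Spry1 was higher and Spry4, Spred2, Etv4 and Etv5 were lower, where 33.8% of all genes were higher and 30.4% lower from 2iL, and 33% and 28.8% from SL. From 2iL the log2 changes were 1.21 (Spry1), -2.50 (Spry4), -1.01 (Spred2), -3.08 (Etv4) and -2.14 (Etv5), and from SL they were 1.03, -2.75, -0.93, -2.10 and -1.53 (edgeR adjusted p at most 0.0212). Dusp4, Dusp6, Spred1, Spry2 and Egr1 had estimates between -0.39 and 0.77 and did not pass the test. The Spry1 call was lost without the block (adjusted p = 0.0608 from 2iL and 0.146 from SL) and without the EpiSC course (0.391 and 0.0953), and from SL also without the EB course (0.110). From SL without the EpiSC course, Spred2 was lost too (0.0598).

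**Figure D3:**
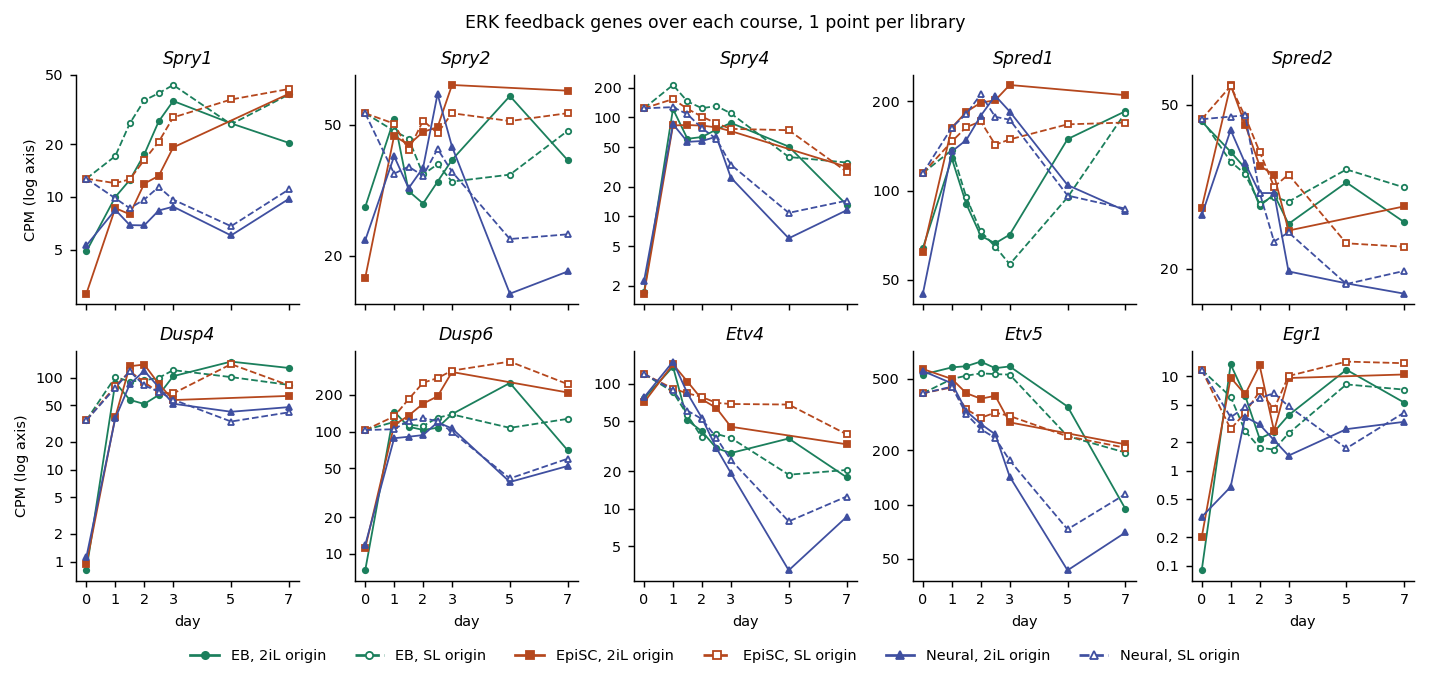
CPM of each gene on a log axis against day, with 1 point per library, colour and marker for the course, filled markers and solid lines for cells from 2iL, and open markers and dashed lines for cells from SL; the single SL library of day 0 starts all 3 dashed lines. The solid lines of Spry4, Dusp4 and Dusp6 start between 0.803 and 11.8 CPM and are at 36.2 CPM or more at day 1, and those of Etv4 and Etv5 descend after day 1 or 2.

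The courses were then compared with each other, with days and origins serving as the replicates. The days of 1 medium and course form 1 series, and libraries of a series deviated together (mean r = 0.449 over 108 pairs), so each course rests on 2 series. The p-values here, and those between origins over several days, treat the days as independent and may be too small. Over days 1 to 3, 3 of the 10 genes were higher in the EpiSC course, with added Fgf2, than in the Neural course and none was lower, against 8.6% of the 16467 genes tested higher and 8.05% lower. Dusp6 ranged from 113 to 315 CPM with a median of 189 CPM in the 10 EpiSC libraries, and from 88.2 to 129 CPM with a median of 105 CPM in the 10 Neural libraries, a log2 difference of 0.79 (SE 0.17, edgeR adjusted p = 0.00220). Spry1 (0.56) and Etv4 (0.54) were the others. With the 2iL libraries alone none was called, and with the library total as the only scaling 6 were, so this early count depends on the choice.

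Over days 5 and 7 all 10 genes were higher in the EpiSC course than in the Neural course, where 17.8% of all genes were higher and 16.4% lower. The median log2 difference of the members was 1.72, against 0.01 for all genes. Every one of the 3 EpiSC libraries (1 from 2iL, 2 from SL) was above every one of the 4 Neural libraries for each gene. With the libraries from 2iL alone 6 were called, and the adjusted p of Spry4, Dusp4, Spred1 and Egr1 was 0.0731, 0.806, 0.154 and 0.265. With those from SL alone 8 were called, and Spred1 and Spred2 were at 0.0619 and 0.306.

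Dusp6 was at 209, 373 and 244 CPM in the EpiSC libraries (day 7 from 2iL, days 5 and 7 from SL). In the Neural libraries it was at 38.7 and 52.3 CPM from 2iL and 41.4 and 60.0 CPM from SL at days 5 and 7, a log2 difference of 2.52 (SE 0.30, edgeR adjusted p = 6.98e-07). Dusp4 differed less, with 63.5 to 141 CPM against 33.4 to 47.9 CPM, a difference of 1.19 (SE 0.37, edgeR adjusted p = 0.0146) that was 0.33 with the libraries from 2iL alone. Etv4 was at 32.8, 68.3 and 39.5 CPM, against 3.21 and 8.60 CPM from 2iL and 7.92 and 12.5 CPM from SL, a difference of 2.46 (SE 0.34, edgeR adjusted p = 4.45e-06). The lowest value of Etv4 among all 45 libraries, 3.21 CPM from 56 reads, was thus in the Neural course at day 5. Etv5 was at 207 to 240 CPM against 43.2 to 114 CPM, a difference of 1.54 (SE 0.28, edgeR adjusted p = 0.000144).

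Among the Sprouty genes, Spry1 was at 36.1 to 41.5 CPM against 6.02 to 11.05 CPM, a log2 difference of 2.09 (SE 0.24, edgeR adjusted p = 5.68e-07). Spry4 was at 28.3 to 74.2 CPM against 6.02 to 14.4 CPM (1.90, SE 0.36, edgeR adjusted p = 0.000179), and Spry2 at 51.4 to 63.5 CPM against 15.4 to 23.3 CPM (1.47, SE 0.21, edgeR adjusted p = 8.92e-06). Egr1 was at 10.4 to 14.21 CPM against 1.73 to 4.12 CPM, a difference of 2.13 (SE 0.66, edgeR adjusted p = 0.0142). The Spred genes differed least, with 0.90 (SE 0.26) for Spred1 and 0.35 (SE 0.12) for Spred2 (edgeR adjusted p = 0.00799 and 0.0278).

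The EB course was also above the Neural course at days 5 and 7, in 9 of the 10 genes, where 22.9% of all genes were higher and 22.1% lower. The largest difference was in Spry1, at 20.4 to 38.6 CPM in EB (log2 difference 1.65, SE 0.22, edgeR adjusted p = 2.29e-06). Egr1, at 5.24 to 11.7 CPM, did not pass the test (1.32, 95% interval 0.12 to 2.52, edgeR adjusted p = 0.0801), though its 4 EB libraries lay above the 4 Neural ones. With the libraries from 2iL alone 6 genes were called and with those from SL alone 7, Spred1 in neither. Over days 1 to 3 the EB course was higher in Spry1 (1.34), Etv5 (0.91) and Spry4 (0.64), against 24.5% of all genes, and lower in Spred1 (-1.17, SE 0.15, edgeR adjusted p = 5.83e-07), against 23.2%. The Spry4 call was lost with the libraries from 2iL alone (0.39, adjusted p = 0.363). Spred1 ranged from 56.3 to 137 CPM in the EB course over those days and from 136 to 211 CPM in the Neural course. Etv5, at 499 to 624 CPM in the 10 EB libraries, was above each of the 10 Neural libraries, which lay at 143 to 472 CPM. Both comparisons use the same Neural libraries.

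The change of the course difference from days 1 to 3 to days 5 and 7 was tested after the values were seen. The difference of the EpiSC from the Neural course grew for 7 genes, where it rose in 8.08% of all genes, by 1.92 (log2) for Etv4, 1.73 for Dusp6, 1.53 for Spry1, 1.5 for Spry4, 1.26 for Etv5, 1.25 for Spry2 and 1.03 for Spred1. With the libraries from 2iL alone 1 was called, and with those from SL 6. The difference of the EB course grew for 6 genes, against 13.2% of all genes, with Spred1 (1.77) and Etv4 (1.63) in front, and with the libraries from SL alone for 2.

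The late Neural libraries differed from the others in more than these genes. Neural markers summed to 372 to 664 CPM there and to 178 to 430 CPM in the EpiSC course, with Hes5 at 17.3 to 35.2 CPM against 0 to 3.96 CPM. Primitive endoderm markers summed to 2750 to 8513 CPM in the Neural course, against 240 to 538 CPM in the EpiSC course and 190 to 1382 CPM in the EB course, and all 10 of them were lower in the EpiSC than in the Neural course. Their most abundant gene, Lama1, was at 1483 to 5453 CPM, and the defining factors Gata6 and Gata4 were at 37.9 to 110 CPM and 31.8 to 111 CPM. Fibroblast markers summed to 17.0 to 67.3 CPM in the Neural and 101 to 797 CPM in the EpiSC course. The part of these cell types in the members' differences was not tested.

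**Figure D4:**
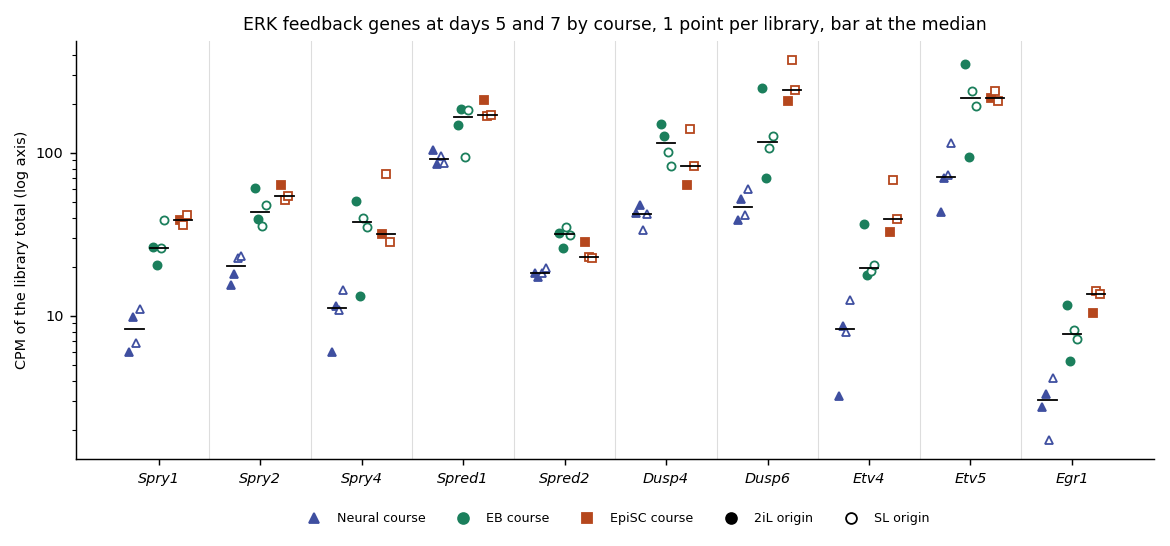
CPM of each gene on a log axis at days 5 and 7 in the Neural (4 libraries), EB (4) and EpiSC (3) courses, with 1 point per library, filled for cells from 2iL and open for cells from SL, and a bar at the median. For every gene the EpiSC points lie above the Neural points, while the EB points of Spry4, Spred1 and Etv5 overlap them.

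Across the 45 libraries the genes fell into more than one pattern, which is given as a description of log2(CPM + 1) values that share library totals, courses and days. The highest correlation was between Dusp4 and Dusp6 (r = 0.836, n = 45), and the lowest between Spred1 and Etv5 (r = -0.276). Without day 0 (n = 41) the order changed, with Spry4 and Etv5 at r = 0.903, Spry4 and Etv4 at 0.835 and Dusp4 and Dusp6 at 0.462. Over all libraries Spry4 and Etv5 were at 0.430 and Spry4 and Etv4 at 0.448. With the 10 members left out, the genes most like the mean pattern of the 5 that rose at day 1, among 17107 genes, were Slc7a7 (r = 0.890), Tiparp (0.854), Pon2 (0.854), Snap47 (0.849) and Enpp3 (0.842), all over 45 libraries. With a pseudocount of 0.1 in place of 1, 2 of these were among the first 5. Slc7a7, an amino acid transporter gene, was at 1.54 to 2.13 CPM in 2iL at day 0, 32.5 CPM in SL at day 0 and 66.0 to 114 CPM at day 1 from 2iL.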

How the data were processed

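RNA was rRNA-depleted, made into strand-specific libraries and sequenced on a HiSeq4000, and the submitters' processing notes name TopHat2, featureCounts, DESeq2 and the builds GRCm38 and mm10. The authors deposited raw read counts per gene on Ensembl release 82 annotation, 1 table per library, for 35372 genes. Of these, 435 had no symbol and held at most 0.0014% of a library. They stayed in the library totals and were left out only when the most alike genes were ranked. Groups came from the labels (medium, course, day). CPM was computed over the library total of 13093226 to 39804240 reads, and RPKM from CPM and exon lengths of GENCODE M21, in which all 10 genes and 34599 of all genes were found. Exact Poisson intervals and the floor of 3 counts cover counting error only.

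Counts were tested with edgeR 4.0.16 in R 4.3.3 (TMM factors, filterByExpr, glmQLFit, glmQLFTest), with Benjamini-Hochberg adjustment over all genes tested and a threshold of 0.05. SE was the absolute log2 fold change divided by the square root of F. Intervals of fitted values were computed from this SE with the normal quantile for 95%. The test itself uses an F distribution, so with few libraries these intervals can be too narrow, and an interval that leaves out 0 is not a passed test. Models held the day and the course as a block, the 3 courses serving as replicates, for each medium. The day 1 changes and the origins were compared in 1 model of both media, and the courses in 1 model of all later libraries. Libraries of the same medium and course at different days deviated together from their day's mean (mean r = 0.449 over 108 pairs, lowest 0.0828, against -0.216 over 216 pairs of the same medium and different courses), and the labels state that they belong to a course, not that they share a culture. Alternatives were DESeq2 1.42.0, relative log expression factors, the library total alone, no filter on low counts, no block, other sets of libraries, and each course or day 0 library left out in turn. A further 2 comparisons, day 7 against day 1 and late against early course differences, were added after the data were seen.

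All 10 genes were named in every comparison. From 31 other ERK-responsive genes (30 found) and 37 pathway components, the 3 largest rises and falls among those called at day 1 from 2iL fixed the names, with Fgf4, Fgf5 and Fgfr1 added. The 5 most alike genes were taken by Pearson correlation of log2(CPM + 1). The members and lists were chosen with earlier results of these data known. No 2 libraries held identical counts, and the lowest chi-square per degree of freedom among 43 pairs of the same medium and day was 18.6. The models were also run on simulated counts that were independent between libraries and had a single fixed dispersion. That run does not cover libraries of a series that deviate together. Tables were handled with Python 3.11.15, numpy 2.4.6 and pandas 2.3.3, intervals computed with scipy 1.17.1, and plots drawn with matplotlib 3.10.9.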

Additional observations from a re-analysis of the deposited data

Results flagged for a closer look

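The change from day 0 to day 1 differed between cells from 2iL and cells from SL, by a test of the difference itself, in 4 genes, where 4.3% of all genes had a larger and 3.83% a smaller change. The difference of the log2 changes, 2iL minus SL, was 5.18 for Spry4, 3.16 for Dusp6, 4.37 for Dusp4 and 6.43 for Egr1 (edgeR adjusted p at most 0.00669), and the single SL library of day 0 enters all 4. Egr1 lost its call without the EpiSC course (adjusted p = 0.0873), and Dusp6 without the EB course (0.0603) or without the block (0.0827).

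The difference between the EpiSC and the Neural course differed between days 5 and 7 and days 1 to 3 in 7 genes, against 8.08% of all genes, each by a test of that change (edgeR adjusted p at most 0.0177) that treats the days of a series as independent. On the log2 scale it grew by 1.92 for Etv4, 1.73 for Dusp6, 1.53 for Spry1, 1.5 for Spry4, 1.26 for Etv5, 1.25 for Spry2 and 1.03 for Spred1. The difference between the EB and the Neural course differed between the same periods in 6 genes, against 13.2% of all genes (edgeR adjusted p at most 0.0262), by 1.77 for Spred1, 1.63 for Etv4, 1.26 for Spry2, 1.18 for Dusp6, 1.18 for Dusp4 and 0.79 for Spred2. For Spred1 the EB course was below the Neural course early (-1.17) and above it late (0.60). With the libraries from 2iL alone the first count was 1, and with those from SL alone the second was 2. Both sets use the same Neural libraries.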

How the results depend on the processing

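Of the counts of genes called in each comparison, 207 values under an alternative stayed on their side and within 1.5 times of the reported count, 22 were lower, 14 higher and 1 moved, and none reversed. For single genes, 323 values kept their call, 16 lost it and 11 gained one, with no change of direction among calls.

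With the spread taken over all 45 libraries, 4 genes were called at day 0, and 0 from SL at days 1.5, 2 and 3. Without the course as a replicate block, none (0) was called from SL at days 1.5, 2, 3 and 5 and 0 for the origins at days 1.5 to 3, and the block changed no other count by over 1.5 times. In the fit of day 0 and the compared day alone, 8 were called from 2iL at day 1 and 2 at day 5, and 7 for the difference of the day 1 changes. From SL, DESeq2 called 1 at day 1 and 2 each at days 2.5 and 3. Scaling by the library total alone, 1 was called from SL at day 2.5 and 6 for EpiSC against Neural at days 1 to 3, where leaving out the EB course gave 5. Without the filter on low counts, 0 were called for the origins at days 1.5 to 3. With the libraries from 2iL alone, EpiSC against Neural gave 0 early and 6 late, and its change between periods 1. With those from SL alone, the change of EB against Neural gave 2. With a pseudocount of 0.1, 2 of the 5 most alike genes were in common.

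Leaving out 1 library or course at a time gave 8 to 9 calls at day 0. From 2iL it gave 4 to 6 at day 1, 4 to 6 at day 1.5, 4 to 7 at day 2, 3 to 6 at day 2.5, 4 to 9 at day 3, 6 to 8 at day 5 and 8 to 9 at day 7. From SL it gave 0 to 1 at days 1, 1.5 and 2, 1 to 2 at day 2.5, 1 to 3 at day 3, 3 to 4 at day 5 and 3 to 5 at day 7. It gave 3 to 4 for the difference of the day 1 changes, 0 to 2 for the origins at days 1.5 to 3, and, for day 7 against day 1, 4 to 6 from 2iL and 3 to 5 from SL. The cause of these shifts was not tested. Day 0 in SL rests on 1 library, and Egr1 in 2iL on 3 to 7 reads per library, which limits the precision of both.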

Other observations

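Other ERK-responsive genes were called in both directions. Of 27 tested at day 0, 6 were higher and 9 lower in 2iL than in SL, against 13.5% and 17.3% of all genes, with a median log2 difference of -0.37, and Egr2, Egr3, Fosb and Fosl1 were each below 0.1 CPM in 2iL. From 2iL, 6 of 30 were higher and 6 lower at day 1.5, and 9 and 6 at day 2. Of all 16306 genes tested, 3271 were higher and 3033 lower at day 1.5, and 3886 and 3390 at day 2. At day 7, 18 of 30 were higher and 3 lower than at day 0 from 2iL (median 1.35), and 8 were higher and 2 lower from SL (median 1.04), where 33.8% and 21.1% of all genes were higher and 29.9% and 21% lower. Between the courses at days 5 and 7, 11 of 30 were higher and none lower in the EpiSC than in the Neural course, with a median of 0.66, and 11 were higher and 3 lower in the EB than in the Neural course, with a median of 0.42. Of all genes 17.8% were higher and 16.4% lower in the EpiSC course, and 22.9% and 22.1% in the EB course. Of the 37 components of the pathway, 9 were higher and 8 lower in the EpiSC course, with a median of 0.05, and 12 higher and 9 lower in the EB course, with a median of 0.12.

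Mesendoderm markers separated the late courses as well. They summed to 183 to 794 CPM in the EB course, 29.0 to 114 CPM in the EpiSC course and 8.14 to 14.4 CPM in the Neural course, with 7 of 7 higher in EB than in Neural and 4 of 7 higher in EpiSC than in Neural.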
